A study of Mus musculus with 20 samples.

Results

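RNA editing left by a deaminase tethered to G3BP1 was compared with that left by the same deaminase under a non-specific rabbit IgG in mouse embryo sections labelled E10.5 fresh-frozen. The comparison rests on 4 libraries out of 20 in the series: anti-G3BP1 replicates 1 and 2 and IgG replicates 1 and 2. They were chosen by antibody from the editing table of the fresh-frozen sections, together with the expression table of the same libraries. The anti-G3BP1 sections (C57BL/6J, WT, 0.2% FA) received a rabbit antibody from Proteintech. A secondary antibody against rabbit, raised in guinea pig, followed, and then rAPOBEC1-pAG-hADAR2, a fusion of deaminases. The IgG sections had the same strain, genotype, fixation, secondary antibody and fusion, with rabbit IgG from CST as the primary antibody. For the 2 untreated libraries of the same table no fixation value is recorded. They had no antibody and no fusion, and serve as the background of base changes that are there without the deaminases. Nothing in the labels says that replicates were separate embryos, so each p-value measures only the spread between these libraries, which may be technical.

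G3BP1 is an RNA-binding protein of the cytoplasm that condenses with untranslated mRNA into stress granules, and in neurons it is found in granules along axons. In MAPIT-seq the protein A/G part (pAG) of the fusion binds the antibody, so that the rat deaminase APOBEC1 turns cytidine into uridine and the catalytic part of human ADAR2 turns adenosine into inosine in RNA close by. Sequencing reads these changes as C-to-T and A-to-G. A library therefore reports binding as a share of edited reads, while its expression level is read from the same molecules. APOBEC1 is known to favour a cytidine preceded by A or U, and ADAR2 an adenosine preceded by U or A.

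The tissue named in the label was checked against marker genes fixed for it. Summed markers of heart muscle were 9.63 to 30.4 TPM (a level scaled by transcript length and library size) in the 6 fresh-frozen libraries, against 4211 to 6698 TPM in the 6 fixed E10.5 embryo libraries. Markers of trunk and limb mesenchyme summed to 11.9 to 15.1 TPM in the fresh-frozen libraries and to 914 to 1262 TPM in the fixed ones. Markers of excitatory cortical neurons went the other way, with 850 to 2285 TPM in the fresh-frozen libraries and 60.6 to 78.8 TPM in the fixed ones. In the E16.5 brain libraries these cortical markers summed to 1241 to 1400 TPM. The fresh-frozen libraries thus lack the defining markers of heart and trunk that a whole E10.5 embryo would carry, and carry markers of cortical neurons at levels like those of E16.5 brain. They are called here by their label.

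The most edited site of a named gene was mostly an adenosine in a 3′ untranslated region, and a few show what the deaminases left. Such a site held from 5.75% (Cacna1b) to 100% (Cox4i1) of its gene's edited anti-G3BP1 reads, so it need not carry the gene's difference. The windows below hold 10 bases on each side of the most edited site of each gene, as read from GENCODE M21 transcripts (GRCm38), 5′ to 3′ on the transcript strand. The capital marks the edited base. They show an adenosine after U or A for 6 genes, and 2 examples of an edited cytidine after A.

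Tuba1a, chr15:98949940-98949960, minus strand: gttaatttgtAtgtggcaatg
Rtn4, chr11:29742444-29742464, plus strand: atactactaaAgcagagtgga
Map2, chr1:66442155-66442175, plus strand: atcatttggaAaaggcaaatt
Gpm6a, chr8:55060437-55060457, plus strand: tgtagtaggtAgggggtatta
Tmx4, chr2:134594702-134594722, minus strand: catttcaagtActacattgcc
Chst2, chr9:95404215-95404235, minus strand: tgggtggagaAgggggaagtg
Nedd4, chr9:72749707-72749727, plus strand: agctatttgaCattgttttta
Hnrnpk, chr13:58391443-58391463, minus strand: gttagttgaaCtttgtaaaaa

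At the Tuba1a adenosine, 56 of 719 and 51 of 885 reads were edited with anti-G3BP1, 3 of 640 and 3 of 613 with IgG, and 0 of 804 and 0 of 856 without treatment. The adenosine of Rtn4 was edited in 41 of 186 and 49 of 210 reads with anti-G3BP1, and in 8 of 160 and 5 of 149 reads with IgG. These 2 sites stood well above IgG in both anti-G3BP1 libraries. The Nedd4 cytidine was edited in 12 of 385 and 31 of 612 reads with anti-G3BP1, 1 of 459 and 0 of 375 with IgG, and 0 of 272 and 0 of 286 without treatment. That of Hnrnpk was edited in 7 of 153 and 7 of 259 reads with anti-G3BP1 and 3 of 213 and 0 of 150 with IgG, a narrower gap. Tmx4 had the highest level of the windows shown, with 25.9% and 24.0% edited reads with anti-G3BP1 against 3.78% and 12.3% with IgG. As a ratio, the adenosine of Gpm6a was the least separated of the windows shown, with 11.7% and 13.9% with anti-G3BP1 and 5.96% and 6.70% with IgG. The sites were picked for having the most edited reads over the 4 libraries, so their levels are descriptions.

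Among the 87 genes named by the rule given under the processing, the most edited site was an A-to-G site in 81 and a C-to-T site in 6. It lay in a 3′ untranslated region in 73 genes and in coding sequence in 13. Of all kept sites, 43.75% were A-to-G and 72.0% lay in 3′ untranslated regions. The edited adenosine followed T in 41 of these genes, A in 31, C in 7 and G in 2. In 78 of the 87 genes no read of either untreated library was edited at that site. Both anti-G3BP1 libraries lay above both IgG libraries in 73. Apart from G3bp1, G3bp2 and Caprin1, the genes were named because they were called on the same reads, so the last count largely follows from the choice.

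Over all 104878 kept sites, in 9826 genes, 1.22% and 1.25% of reads were edited with anti-G3BP1, against 0.636% and 0.661% with IgG and 0.380% and 0.356% without treatment. A site was kept if it had 10 or more reads in each of the 6 libraries. The anti-G3BP1 libraries lay above both IgG libraries, and these above both untreated ones. The means were 1.23% ± 0.019 with anti-G3BP1, 0.648% ± 0.018 with IgG and 0.368% ± 0.017 without treatment (SD, n = 2 each), a 1.90-fold difference between the antibodies, or 0.93 on the log2 scale. An exact two-sided permutation test gave p = 0.333, the smallest that 2 against 2 libraries allow. At this depth counting error was small: the 95% Wilson interval of anti-G3BP1 replicate 1 ran from 1.21% to 1.23%, and that of IgG replicate 1 from 0.629% to 0.642%. Such intervals, and the floors used further on, hold counting error alone, since no molecular identifiers were used for these reads.

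The libraries were not sequenced alike. Mean depth per kept site was 64.7 and 93.9 reads with anti-G3BP1, 56.1 and 56.9 with IgG and 73.5 and 65.7 without treatment. Edited reads numbered 82721 and 122722 with anti-G3BP1, 37423 and 39427 with IgG, and 29281 and 24494 without treatment. After the data were seen, the 1894 sites at which neither anti-G3BP1 library was deeper than either IgG library were described on their own. There the mean depth was 35.8 and 45.1 reads with anti-G3BP1 and 58.9 and 55.6 with IgG, and the edited share was 1.76% and 1.73% with anti-G3BP1 against 0.856% and 0.835% with IgG. The difference at these few sites was 2.07-fold, beside 1.90-fold over all sites, and 0 of the 275 genes left to test there were called. The part of depth in which sites were listed was not tested. Nearly all kept sites carried an edited read somewhere, since only 1029 of 104878 (0.981%) were unedited throughout. Sites edited in 1 library alone were 16.65% and 26.07% of kept sites for anti-G3BP1, against 8.25% and 8.50% for IgG. A site may thus have been listed because of the deeper or more edited libraries. All shares, fold differences and gene changes rest on such sites, and what the listing adds to them was not tested.

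Both deaminases left more editing with anti-G3BP1, and adenosine more than cytidine. A-to-G sites (45884) had 1.68% and 1.73% edited reads with anti-G3BP1, 0.728% and 0.793% with IgG and 0.374% and 0.353% without treatment, a 2.24-fold difference between the antibodies. C-to-T sites (58994) had 0.873% and 0.882% with anti-G3BP1, 0.566% and 0.561% with IgG and 0.384% and 0.358% without treatment, a 1.56-fold difference. For neither kind of site did the groups overlap.

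The base before the edited one divided the sites further. An adenosine after U was edited in 2.38% and 2.49% of reads with anti-G3BP1 against 0.883% and 1.02% with IgG, 2.57-fold higher. After A the difference was 2.44-fold, after C 2.01-fold and after G 1.46-fold. All 16 triplets centred on A had both anti-G3BP1 libraries above both IgG libraries, from 1.21-fold for GAA to 2.72-fold for UAC.

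Cytidine differed far more by its neighbour. After A it was edited in 1.16% and 1.20% of reads with anti-G3BP1, 0.428% and 0.447% with IgG and 0.185% and 0.169% without treatment, 2.69-fold higher than with IgG. The triplet ACU stood highest, with 1.28% and 1.33% with anti-G3BP1 against 0.419% and 0.437% with IgG, 3.04-fold. After U the difference was 1.49-fold. After G the libraries overlapped, with 0.692% and 0.621% with anti-G3BP1 and 0.634% and 0.663% with IgG. After C both anti-G3BP1 libraries lay below both IgG libraries, at 0.623% and 0.651% against 0.771% and 0.681%. The gain of C-to-T reads was thus found mainly at the contexts that APOBEC1 is known to favour. Among the triplets with a cytidine after G or C, only GCU had both anti-G3BP1 libraries above both IgG libraries, 1.08-fold.

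**Figure D1:**
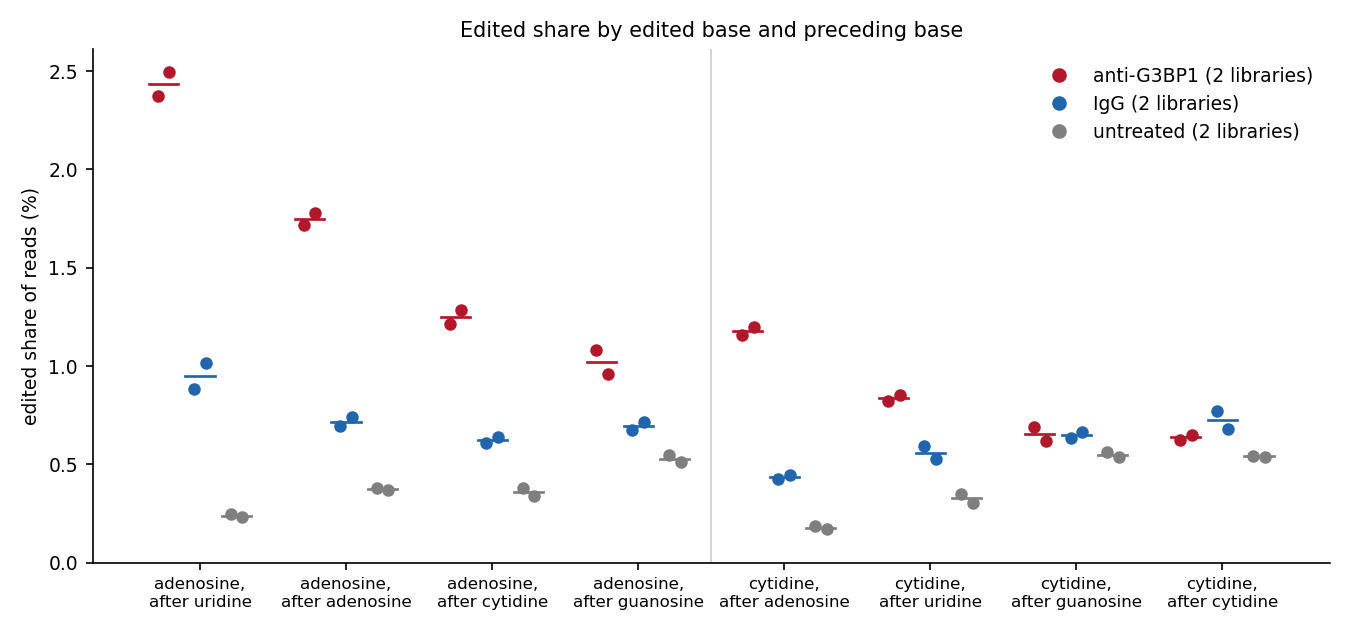
Edited share of reads (%) over kept sites, by edited base and preceding base, for each library (anti-G3BP1, IgG and untreated). Adenosines after U and cytidines after A have the widest gaps between antibodies, 2.57-fold and 2.69-fold, while cytidines after G overlap and those after C lie lower with anti-G3BP1.

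By gene region the difference was widest in 3′ untranslated regions. Their 75524 sites had 1.24% and 1.28% edited reads with anti-G3BP1 against 0.585% and 0.625% with IgG, 2.09-fold higher. Coding sequence (23422 sites) had 1.13% and 1.10% with anti-G3BP1 and 0.721% and 0.695% with IgG, 1.57-fold higher. The 644 sites in 5′ untranslated regions had 1.07% and 1.02% with anti-G3BP1 and 0.940% and 0.797% with IgG, 1.20-fold higher. Exons of non-coding transcripts (5144 sites) had 1.24% and 1.25% with anti-G3BP1 and 1.05% and 1.06% with IgG, 1.18-fold higher. The order held within each deaminase: A-to-G sites differed 2.46-fold in 3′ untranslated regions and 1.94-fold in coding sequence, and C-to-T sites 1.70-fold and 1.26-fold.

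Sites edited in both libraries of one antibody and in no other library of the table showed the same features. There were 5844 such sites for anti-G3BP1, in 3336 genes, and 706 for IgG, in 641 genes, counts that depend on which sites were listed. Of those of anti-G3BP1, 63.1% were A-to-G and 81.2% lay in 3′ untranslated regions, against 34.8% and 67.3% of those of IgG. Among all kept sites 43.75% were A-to-G and 72.0% lay in 3′ untranslated regions. Cytidine followed A at 66.6% of the C-to-T sites found with anti-G3BP1 alone, at 25.4% of those found with IgG alone and at 37.5% of all kept ones. A further 920 sites in 744 genes were edited in all 4 antibody libraries and in no untreated one, and 91.4% of them were A-to-G. Most edited sites were seen in a single library: 17462 in anti-G3BP1 replicate 1 alone and 27339 in replicate 2 alone, against 8657 in IgG replicate 1 alone and 8910 in replicate 2 alone. The counts of edited reads have a lower edge that touches such sites: in anti-G3BP1 replicate 1, 4630 sites held 1 edited read and 22916 held 2.

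Gene by gene, 458 of the 8037 genes tested, 5.7%, rose with anti-G3BP1 at an adjusted p under 0.05, and 0 (0%) fell. A gene was tested if its kept sites held 50 or more reads in each of the 4 libraries, and its edited and unedited reads were compared with a quasi-binomial model whose spread was moderated across genes with limma and whose p-values were adjusted by Benjamini-Hochberg. At an unadjusted p under 0.05, 1698 genes were higher and 76 lower. Both anti-G3BP1 libraries lay above both IgG libraries in 3730 genes (46.4%) and below them in 364 (4.53%). The median change over all tested genes was 0.91 on the log2 odds scale, or 0.74 with the 858 genes that had no edited IgG read set at their lower bound.

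The calls need both anti-G3BP1 libraries, though a fit without 1 library takes its spread from the other group alone. Without anti-G3BP1 replicate 1 or without replicate 2, 0 genes were called higher in the quasi-binomial fit, with 913 and 796 at an unadjusted p under 0.05. Without IgG replicate 1 there were 150 calls and without IgG replicate 2 there were 220, of which 137 and 190 were among the 458. limma on the logit of the shares called 0 genes (1166 higher at an unadjusted p under 0.05), and edgeR's quasi-likelihood test called 326 higher and 1 lower. All 458 kept a positive change whichever library was left out, but they were called from these same libraries, so this largely follows from the choice. Among all 8037 genes tested, 6328 had a positive change. Tested against the median gene in place of no change, 1 gene was called, Tuba1a, with an adjusted p of 0.0067 in the quasi-binomial fit.

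The called genes had more edited reads than the others, with a median of 92 over the 4 antibody libraries against 20, and none had fewer than 21. Of the 458, 454 were protein-coding. Their median share was 1.89% with anti-G3BP1, 0.438% with IgG and 0.243% without treatment, beside 1.23%, 0.613% and 0.335% over all genes tested. In 457 of them both anti-G3BP1 libraries lay above both untreated ones, a count taken over genes chosen for a high anti-G3BP1 share. Both IgG libraries lay above both untreated ones in 215 of the 458, a count over genes chosen in part for a low IgG share. These counts are not given over all genes tested, so they do not set the called genes apart. Of 4 equal groups of genes by IgG share, 9.15% were called in the lowest and 1.69% in the highest, with median changes of 2.40 and 0.023. The IgG share is itself part of the change, so this order largely follows from the grouping. The 435 called genes that had an edited IgG read changed by 0.90 to 4.66 on the log2 odds scale, with a median of 2.07. With genes put in 4 equal groups by transcript length, 2.72% of the shortest and 10.3% of the longest were called, while the medians of these groups were 0.76 and 0.99.

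**Figure D2:**
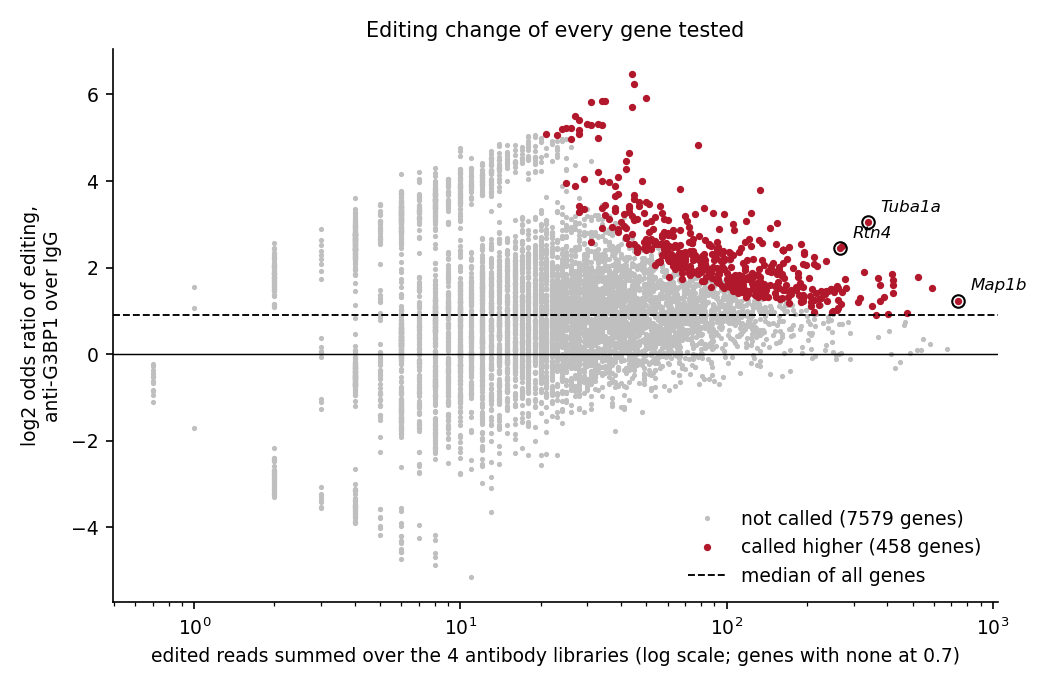
Log2 odds ratio of editing, anti-G3BP1 over IgG, of every gene tested (vertical axis), against the edited reads summed over the 4 antibody libraries (horizontal axis, log scale), with the 458 called genes marked; the upper band holds genes with no edited IgG read, whose fitted values depend on the reads added. The cloud is centred above 0, at a median of 0.91, and no called gene has fewer than 21 edited reads.

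The gene with the smallest p encodes the tubulin of young neurons. Tuba1a, an alpha-tubulin of migrating and axon-growing neurons, had 4.30% and 4.62% edited reads with anti-G3BP1, 0.508% and 0.593% with IgG and 0.194% and 0.140% without treatment. Both anti-G3BP1 libraries stood far above the other 4. The log2 odds change was 3.05 ± 0.40 (SE, n = 2 each; quasi-binomial fit moderated with limma, adjusted p = 2.87e-06). Of its 16 kept sites, 14 lay in coding sequence and 7 were also listed under another gene, so reads of near-identical tubulin genes may be among them. Tuba1b, its close paralog, had a change of 0.03 (adjusted p = 0.98 in the same fit).

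Genes of the neuronal cytoskeleton, which build and steer axons, were called in 12 of 33 tested (36.4%, beside 5.7% of all genes), and the median change was 1.22 (0.91 over all genes), or 1.21 with the 1 member lacking edited IgG reads at its bound. The list had a median of 120 edited reads per gene, against 21 over all genes, and called genes in general had more edited reads. The list's summed share was 1.57% and 1.59% with anti-G3BP1, 0.603% and 0.657% with IgG. Both anti-G3BP1 libraries lay above both IgG libraries in 28 of the 33 (46.4% of all genes). The called members besides Tuba1a were Map2, Map1b, Stmn2, Tubb3, Ank2, Tubb2a, Mapt, Ank3, Map4, Dclk1 and Gap43.

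Map2, which binds microtubules in dendrites, had 1.73% and 2.12% with anti-G3BP1 against 0.370% and 0.812% with IgG, a change of 1.78 ± 0.27 over 123 sites. Map1b, a microtubule-binding protein of growing axons, had 1.74% and 1.98% with anti-G3BP1 against 0.788% and 0.818% with IgG. Stmn2, which destabilises microtubules in growth cones, had 4.09% and 3.39% with anti-G3BP1 against 0.80% and 0.673% with IgG. In all 3 the antibody groups were apart, and Map1b had the smallest change, 1.23 ± 0.19, over 147 sites. Of these sites, 25 were edited in both anti-G3BP1 libraries, 7 in both IgG libraries and 11 in both untreated ones. Of the 20 motor genes that carry cargo along axons, 2 were called (5.7% of all genes), Kif1b (1.75) and Kif5b (2.30), with a list median of 0.89.

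**Figure D3:**
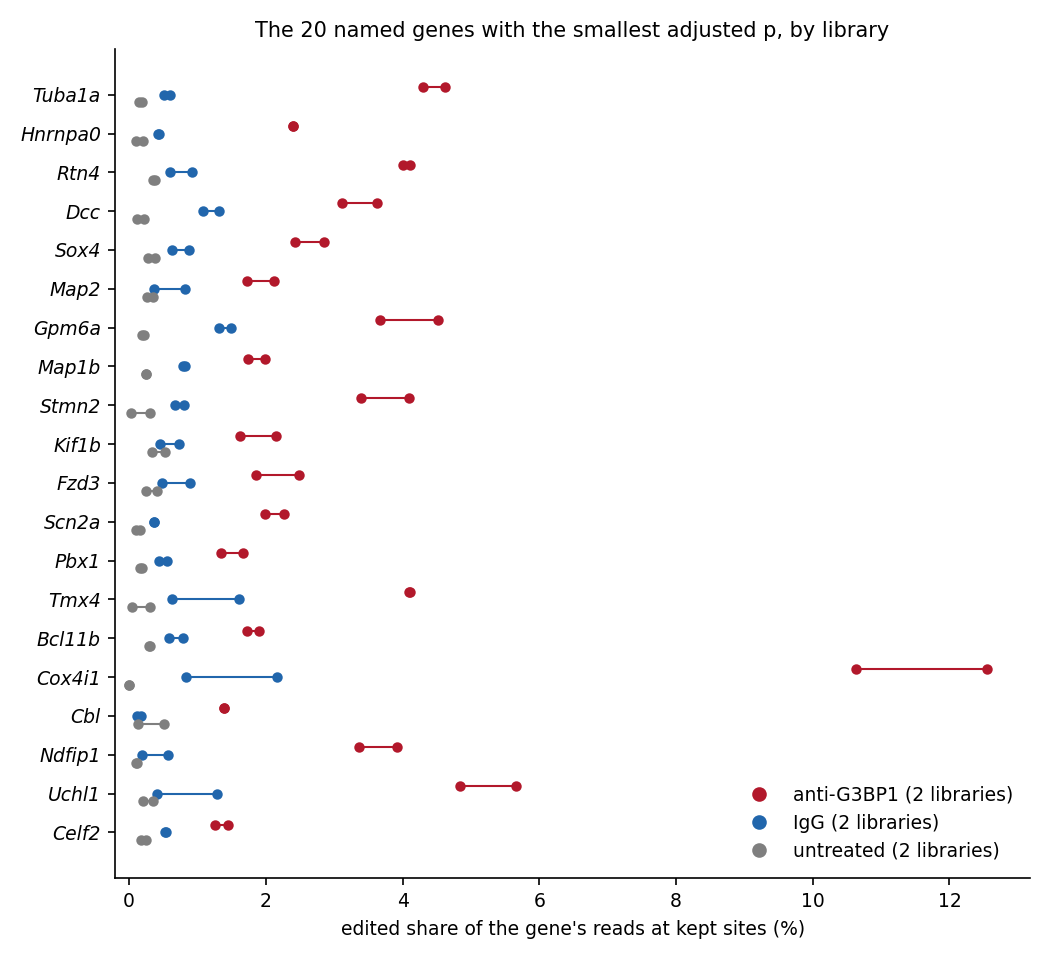
Edited share of each gene's reads at kept sites (%) in every library for the 20 named genes with the smallest adjusted p. In each of these genes both anti-G3BP1 points lie to the right of both IgG points; Cox4i1, with 1 kept site, lies farthest right at 10.6% and 12.55%.

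Receptors and ligands that steer axons and hold them together were called in 8 of 32 tested genes, beside 5.7% of all genes, with a median change of 1.14 and a median of 64.5 edited reads per gene. Dcc, the receptor of the attractant netrin, had 3.11% and 3.63% with anti-G3BP1, 1.09% and 1.32% with IgG and 0.116% and 0.212% without treatment, a change of 1.52 ± 0.22 (adjusted p = 0.000135 in the quasi-binomial fit). Its IgG level was itself well above the untreated one. Robo1, a receptor of the repellent Slit, had 2.39% and 1.82% with anti-G3BP1 against 0.121% and 0.410% with IgG, a change of 2.88 ± 0.71. Robo2, its relative, had 1.26% and 1.31% with anti-G3BP1 against 0.351% and 0.495% with IgG. The other 5 called were Efna5, an ephrin ligand (1.70), the ephrin receptor gene Epha5 (1.83), the semaphorin receptor genes Nrp1 (1.79) and Plxna1 (0.93), and the adhesion gene Nrcam (1.47). For Plxna1 a single site held 81.4% of the edited anti-G3BP1 reads.

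Channels that carry the nerve impulse came next. Of 14 voltage-gated channel genes 4 rose (28.6%, beside 5.7% of all genes), while the list median of 0.995 was close to the 0.91 of all genes. The list had a median of 65.5 edited reads. Scn2a, a sodium channel of axons, had 1.99% and 2.27% with anti-G3BP1 against 0.362% and 0.370% with IgG, a change of 2.55 ± 0.48 (adjusted p = 0.000405, quasi-binomial fit). Kcnd2, a potassium channel of dendrites, had 4.93% and 5.73% with anti-G3BP1 against 0.598% and 1.46% with IgG, 2.51 ± 0.54. The calcium channel genes Cacna2d1 (1.98) and Cacna1b (1.31) were called as well.

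Receptors of inhibitory transmitters had 2 of 6 genes called (5.7% of all genes) and the highest median of the lists, 2.56, or 2.09 with the 1 gene lacking edited IgG reads at its bound. Glra2, a glycine receptor subunit of the embryonic brain, had 2.41% and 3.62% with anti-G3BP1 against 0.110% and 0.548% with IgG, 3.20 ± 0.85. The antibody groups were apart. A list of 6 is short, and 4 of its members were not called.

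Receptors of glutamate had 1 of 14 called (7.14%), near the 5.7% of all genes, and a median change of −0.0090 where all genes had 0.91. The called one was Grin2b, an NMDA receptor subunit, with 1.14% and 0.871% with anti-G3BP1 against 0.343% and 0.579% with IgG. In 10 of the 14 the groups overlapped, beside 3943 of all 8037 genes tested. Gria2, an AMPA receptor subunit whose mRNA the cell's own ADAR2 edits, had 2.11% and 1.85% with anti-G3BP1, 1.90% and 2.02% with IgG and 1.37% and 1.78% without treatment. Its level without treatment was near that of the other libraries. The list as a whole stood at 0.692% and 0.864% without treatment, beside 1.17% and 1.15% with anti-G3BP1 and 0.893% and 1.08% with IgG. Whether the glutamate and inhibitory receptor lists differ was not tested.

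Synaptic genes were called at rates near that of all genes, 5.7%. Of 22 presynaptic and vesicle genes 2 were called (9.09%), with a median of 0.91. Sv2a, a protein of synaptic vesicles, had 4.91% and 5.54% with anti-G3BP1 against 1.47% and 2.14% with IgG. Rab3a, a small GTPase of vesicle release, had 3.12% and 4.70% with anti-G3BP1 against 1.45% and 0.662% with IgG. Both genes were apart between antibodies. Of 14 postsynaptic scaffold genes 1 was called (7.14%), Nlgn3 (1.48), with a median of 0.45.

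The mRNA of G3BP1 itself was not among the called genes. G3bp1 had 0.580% and 1.09% edited reads with anti-G3BP1, 0.534% and 0.809% with IgG and 0.260% and 0.0705% without treatment. The antibody groups overlapped, and the change was 0.39 ± 0.54 (quasi-binomial fit, adjusted p = 0.686). G3bp2, its paralog, had 0.930% and 1.599% with anti-G3BP1 against 0.183% and 0.699% with IgG, and missed the threshold (1.48 ± 0.53, adjusted p = 0.0655). Caprin1, a partner protein of G3BP1 in granules, had 1.66% and 2.11% with anti-G3BP1 against 0.470% and 1.34% with IgG (1.15 ± 0.50, adjusted p = 0.153). The levels of these mRNAs were close between the antibodies: G3bp1 had 101 and 118 TPM with anti-G3BP1, 92.7 and 103 TPM with IgG and 103 and 117 TPM without treatment.

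Of 28 genes of stress granule proteins 2 were called (7.14%), a share near the 5.7% of all genes, and their median of 1.001 was close to 0.91. Ddx6, an RNA helicase of granules and P-bodies, had 1.45% and 1.37% with anti-G3BP1 against 0.464% and 0.545% with IgG, 1.47 ± 0.37. Larp1, which binds mRNAs of the translation machinery, had 1.39% and 1.37% with anti-G3BP1 against 0.398% and 0.573% with IgG. Both anti-G3BP1 libraries lay above both IgG libraries in 19 of the 28, against 46.4% of all genes. Just short of the threshold were Ddx3x (1.86, adjusted p = 0.0547) and Serbp1 (1.85, adjusted p = 0.0555 in the same fit).

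Genes of splicing factors were called in 5 of 28 (17.9%, beside 5.7% of all genes, with a median of 68.5 edited reads), with a median change of 1.24, or 1.10 with the 1 gene lacking edited IgG reads at its bound. Hnrnpa0, which binds AU-rich elements, had 2.40% and 2.40% with anti-G3BP1, 0.434% and 0.418% with IgG and 0.203% and 0.0980% without treatment. The change was 2.51 ± 0.37 (quasi-binomial fit, adjusted p = 6.83e-05), and 37 of its 38 sites lay in the 3′ untranslated region. The others called were Hnrnpk, Hnrnpr, Son and Srsf2. Of 27 other neuronal RNA-binding protein genes 5 were called (18.5%), with a median change near that of all genes, 0.95, and a median of 84 edited reads: Celf2, Rbfox2, Pum2, Celf4 and Nova1. Rbfox2, a splicing regulator, had 2.14% and 2.94% with anti-G3BP1 against 0.511% and 0.703% with IgG, and Pum2, a repressor of translation, had 1.56% and 1.84% against 0.423% and 0.625%.

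Genes of protein turnover were called in 9 of 24 (37.5%, beside 5.7% of all genes), with a median change of 1.33. Both anti-G3BP1 libraries lay above both IgG libraries in 20 of them (46.4% of all genes) and below in 0. Like the cytoskeleton list, it was rich in edited reads, with a median of 91.5 per gene against 21 over all genes. Cbl, a ubiquitin ligase of receptor tyrosine kinases, had 1.38% and 1.39% with anti-G3BP1 against 0.168% and 0.112% with IgG, a change of 3.25 ± 0.75 (quasi-binomial fit, adjusted p = 0.000597). Ndfip1, an adaptor of the Nedd4 ligases, had 3.92% and 3.37% with anti-G3BP1 against 0.181% and 0.574% with IgG. Nedd4 itself had 1.59% and 1.12% with anti-G3BP1 against 0.229% and 0.397% with IgG, a change of 2.08 ± 0.43. Uchl1, an abundant neuronal ubiquitin hydrolase, was read at 5 sites, of which 1 held 78.4% of its edited anti-G3BP1 reads. The other called members were Ube3a, Herc1, Ubb, Mycbp2 and Herc2.

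Genes that shape the endoplasmic reticulum and serve early secretion were called in 6 of 22 (27.3%, beside 5.7% of all genes), with a median change of 1.18 and a median of 68.5 edited reads. Rtn4, the reticulon also known as Nogo, had 4.10% and 4.01% with anti-G3BP1, 0.605% and 0.927% with IgG and 0.381% and 0.353% without treatment, 2.45 ± 0.36. The adenosine printed above gave 39.6% of its edited anti-G3BP1 reads. Of its 37 sites, 12 were edited in both anti-G3BP1 libraries, 2 in both IgG libraries and 3 in both untreated ones. Ssr3, a subunit of the translocon-associated complex, had 2.40% and 2.47% with anti-G3BP1 against 0.163% and 0.400% with IgG. Arf4, a small GTPase of the Golgi, had 1.86% and 1.79% with anti-G3BP1 against 0.145% and 0.205% with IgG. Rtn1, Ckap4 and Sec62 completed the 6.

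Translation was described by its factors and its ribosomal proteins. Of 23 translation factor genes 4 rose (17.4%, beside 5.7% of all genes), with a median of 1.05: Eif4b (3.09 ± 0.94), Eif3a, Eef1b2 and Etf1. Of 32 cytosolic ribosomal protein genes 1 rose (5.7% of all genes), Rpl15, with 1.59% and 1.58% with anti-G3BP1 against 0.179% and 0% with IgG. The median of the ribosomal list was 0.031, or −0.072 with 4 genes at their bound. Between antibodies 20 of the 32 overlapped, beside 3943 of all 8037 genes tested. These mRNAs are short and had a median below the 21 edited reads of the least edited called gene, so a change in most of them was not detectable at this depth.

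Among other lists, nuclear long non-coding RNAs had 1 of 12 called (8.33%, beside 5.7% of all genes), a median change of 0.30 and a median of 160 edited reads. The called one was Rmst, with 0.841% and 0.780% with anti-G3BP1, 0.123% and 0.260% with IgG and 0.586% and 0.696% without treatment, so it was IgG that lay lowest. Malat1, which stays in nuclear speckles, had 0.367% and 0.244% with anti-G3BP1 against 0.300% and 0.297% with IgG. Meg3, another nuclear RNA, had 1.06% and 0.761% with anti-G3BP1 against 0.817% and 0.970% with IgG. Both overlapped between antibodies.

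The remaining lists are also to be read against 5.7% called and a median of 0.91 over all genes. Chromatin regulators had 3 of 26 called and a median of 0.72, with Bptf, Tcf4 and Crebbp. Imprinted growth genes had 3 of 18 called and a median of 0.96, with Mest, Grb10 and Gnas. Chaperone genes had 2 of 19 called, Hspd1 and Hsph1, and a median of 1.11. Nuclear genes of the respiratory chain had 2 of 19 called and a median of 1.06, or 0.66 with 3 genes at their bound; Cox4i1, at a single site, had 10.6% and 12.55% with anti-G3BP1, 0.833% and 2.16% with IgG, and 0% in both untreated libraries. Of 5 mitochondrially encoded mRNAs 1 was called, mt-Co1, with 4.32% and 5.31% with anti-G3BP1 against 1.29% and 2.72% with IgG. Genes known for A-to-I recoding had 2 of 20 called (Son and Nova1) and a median of 0.85. In the quasi-binomial fit, 0 of 7 cell cycle genes (median 1.08, or 0.78 with 1 gene at its bound), 0 of 3 immediate early genes (median 1.06) and 0 of 4 in the list of G3bp1 and the deaminase genes (median 1.09) were called. At an unadjusted p under 0.05, 1, 0 and 1 of them were higher.

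**Figure D4:**
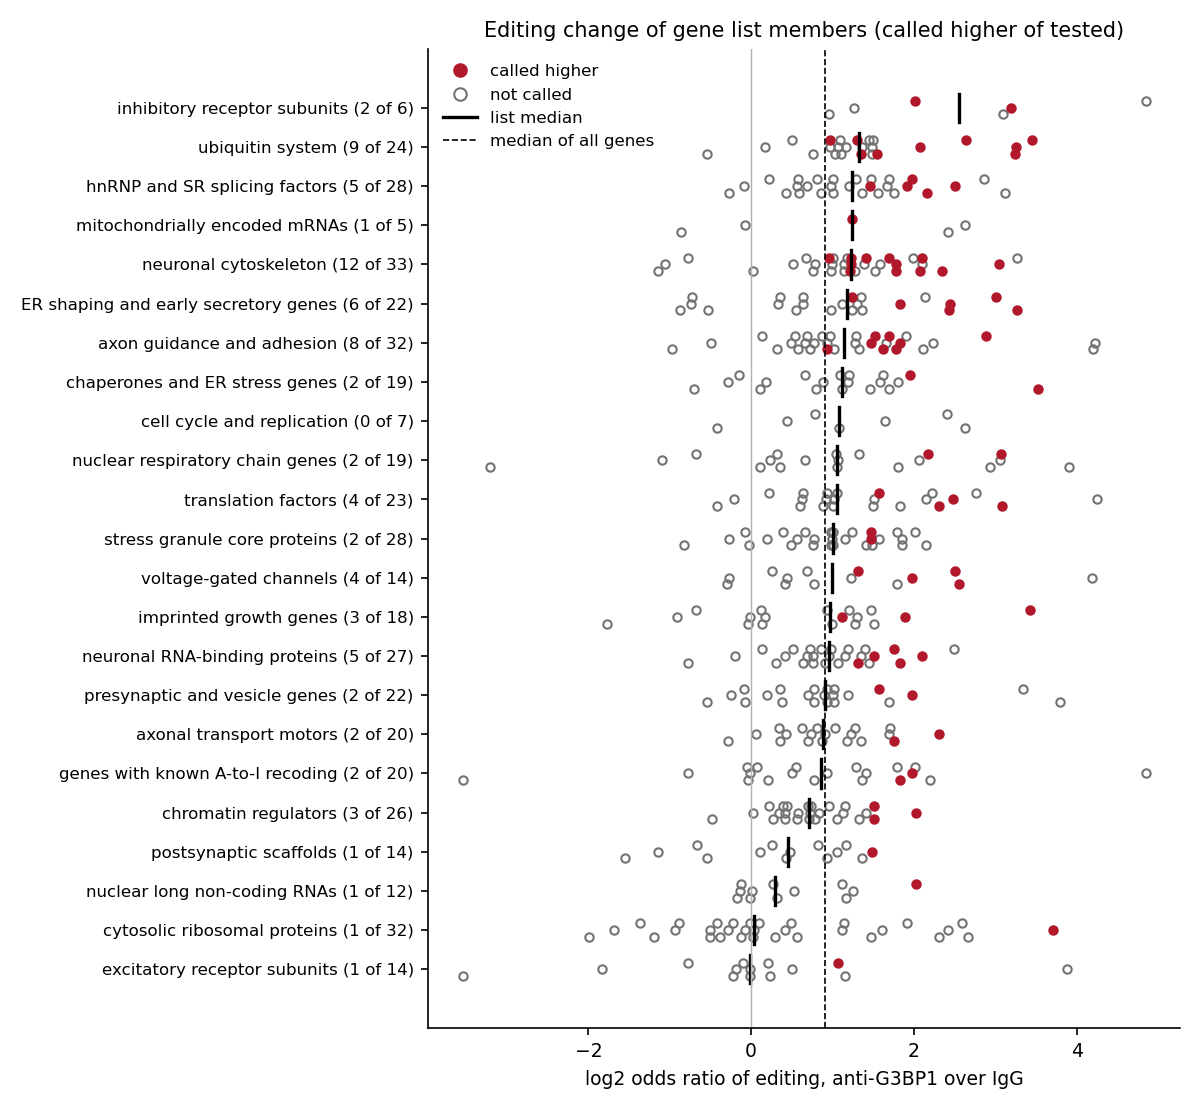
Log2 odds ratio of editing, anti-G3BP1 over IgG, for the members of each gene list with 5 or more tested, and the count called higher; values of genes with no edited IgG read depend on the reads added. Cytoskeleton (12 of 33), ubiquitin system (9 of 24) and axon guidance (8 of 32) hold the most called members, and the glutamate receptor and ribosomal protein lists are centred near 0.

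Of the 458 called genes, 23 had no edited read in either IgG library, so their change is given as a lower limit against a floor of 3 edited reads over both IgG libraries. The limit holds only if no edited IgG reads were left out before deposit, which was not tested: in IgG replicate 1, 3473 sites held 1 edited read and 12056 held 2. Socs2, a suppressor of cytokine signalling, had 1.44% and 2.26% with anti-G3BP1 and 0% in both IgG libraries, at least 14.3-fold higher, with 0.132% and 0.45% without treatment. Cstf2t, a polyadenylation factor gene, had 1.72% and 1.75% with anti-G3BP1, at least 12.3-fold higher, with 0.4215% and 0% without treatment. In both genes IgG thus lay below at least 1 untreated library. Chst2, a sulfotransferase of the Golgi, had 1.52% and 1.75%, at least 9.83-fold higher, with 0.134% and 0.423% without treatment. Its adenosine printed above was edited in 7 of 51 and 14 of 90 reads with anti-G3BP1. Prdx2, a peroxiredoxin, had 2.01% and 2.09% with anti-G3BP1 and 0% in both IgG and both untreated libraries, at least 8.51-fold higher. The other 6 of the 10 named by size, Sccpdh, Atp6v1d, Ttc9c, Fbxo34, Tcta and Chmp5, were at least 6.39-fold to at least 9.32-fold higher.

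The same libraries were compared by expression, since the sections under each antibody may hold different cells. With limma on log2(TPM + 1), 0 of 22298 genes (0%) passed an adjusted p under 0.05 in either direction; the smallest adjusted p was 0.147. At an unadjusted p under 0.05, 1491 genes (6.69%) were higher with anti-G3BP1 and 1254 (5.62%) lower. Both anti-G3BP1 libraries lay above both IgG libraries in 4974 genes (22.3%) and below them in 4865 (21.8%). When the untreated libraries shared the estimate of the spread, limma called 29 genes higher and 5 lower. In bulk RNA, fewer cells of a type and less RNA per cell cannot be told apart.

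The genes with the smallest p in the fit of the 4 antibody libraries, which called none, include several of neural progenitors and of regional neurons. Vim, an intermediate filament of radial glia, had 392 and 390 TPM with anti-G3BP1 against 162 and 165.1 TPM with IgG (log2 change 1.25). Dbx1, a transcription factor of progenitors, had 229 and 211 TPM with anti-G3BP1 against 61.9 and 67.7 TPM with IgG (1.75). Rfx4, a factor of neural progenitors, had 53.8 and 53.0 TPM with anti-G3BP1 against 14.7 and 15.4 TPM with IgG. On the lower side, Cck, a neuropeptide gene, had 42.8 and 37.0 TPM with anti-G3BP1 against 116 and 108 TPM with IgG (−1.47). Nts, another neuropeptide gene, had 28.9 and 27.4 TPM with anti-G3BP1 against 121 and 94.8 TPM with IgG (−1.89). For each of these 5 genes the groups were far apart. The limma adjusted p was 0.147 with the 4 antibody libraries and 0.0462 to 0.0470 with all 6 libraries in 1 fit, so they are among the 29 and 5 genes called there.

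Marker lists differed between the antibodies in their summed levels, although 0 of their members passed adjustment in the limma fit of 4 libraries. Over all genes, 22.3% had both anti-G3BP1 libraries above both IgG libraries and 21.8% below. Markers of radial glia and progenitors summed to 2214 and 2245 TPM with anti-G3BP1, 1138 and 1139 TPM with IgG and 2032 and 2296 TPM without treatment, 1.96-fold higher with anti-G3BP1 than with IgG. Of the 14, 13 had both anti-G3BP1 libraries above both IgG libraries and 1, Pax6, below; 12 were higher at an unadjusted p under 0.05 (6.69% of all genes). Slc1a3 and Vim were called in the fit of all 6 libraries. Markers of subcortical excitatory neurons summed to 1326 and 1204.5 TPM with anti-G3BP1, 1639 and 1784 TPM with IgG and 705 and 698 TPM without treatment; of the 13, 10 lay below and 0 above. Tcf7l2, a factor of thalamic neurons, had 153 and 120 TPM in that list with anti-G3BP1 against 265 and 314 TPM with IgG.

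Other lists held members that went both ways. Markers of inhibitory neurons summed to 2026 and 2123 TPM with anti-G3BP1 and 2534 and 2479 TPM with IgG. The lower sum came from 4 of 13 members, foremost Sst, with 701 and 751 TPM with anti-G3BP1 against 1112 and 1069 TPM with IgG, and Npy, both neuropeptide genes. In 6 members both anti-G3BP1 libraries lay above, among them the factor gene Dlx2 with 72.4 and 59.1 TPM against 27.1 and 28.7 TPM, and the median log2 change was 0.14. Hypothalamic markers summed to 969.9 and 971 TPM with anti-G3BP1 and 599.5 and 687 TPM with IgG, a sum that rests largely on Otp, with 425 and 401 TPM against 153 and 179.9 TPM. Of 11 tested, 4 lay above, 3 below (Pomc, Oxt and Avp) and 4 overlapped, with a median log2 change of 0.197. Markers of excitatory cortical neurons summed to 979 and 1149 TPM with anti-G3BP1, 850 and 913 TPM with IgG and 2285 and 1977 TPM without treatment. Of the 13, 7 lay above, 2 below (Bcl11b and Foxp2) and 4 overlapped. Erythroid markers summed to 1086 and 1155 TPM with anti-G3BP1 and 725 and 883 TPM with IgG. Of 17 cell cycle genes, 13 were higher with anti-G3BP1 at an unadjusted p under 0.05 (6.69% of all genes), with a median log2 change of 0.81, and 0 passed adjustment in the limma fit of 4 libraries, while Mki67 and Top2a passed in that of 6. The part of these differences in the editing changes was not tested.

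**Figure D5:**
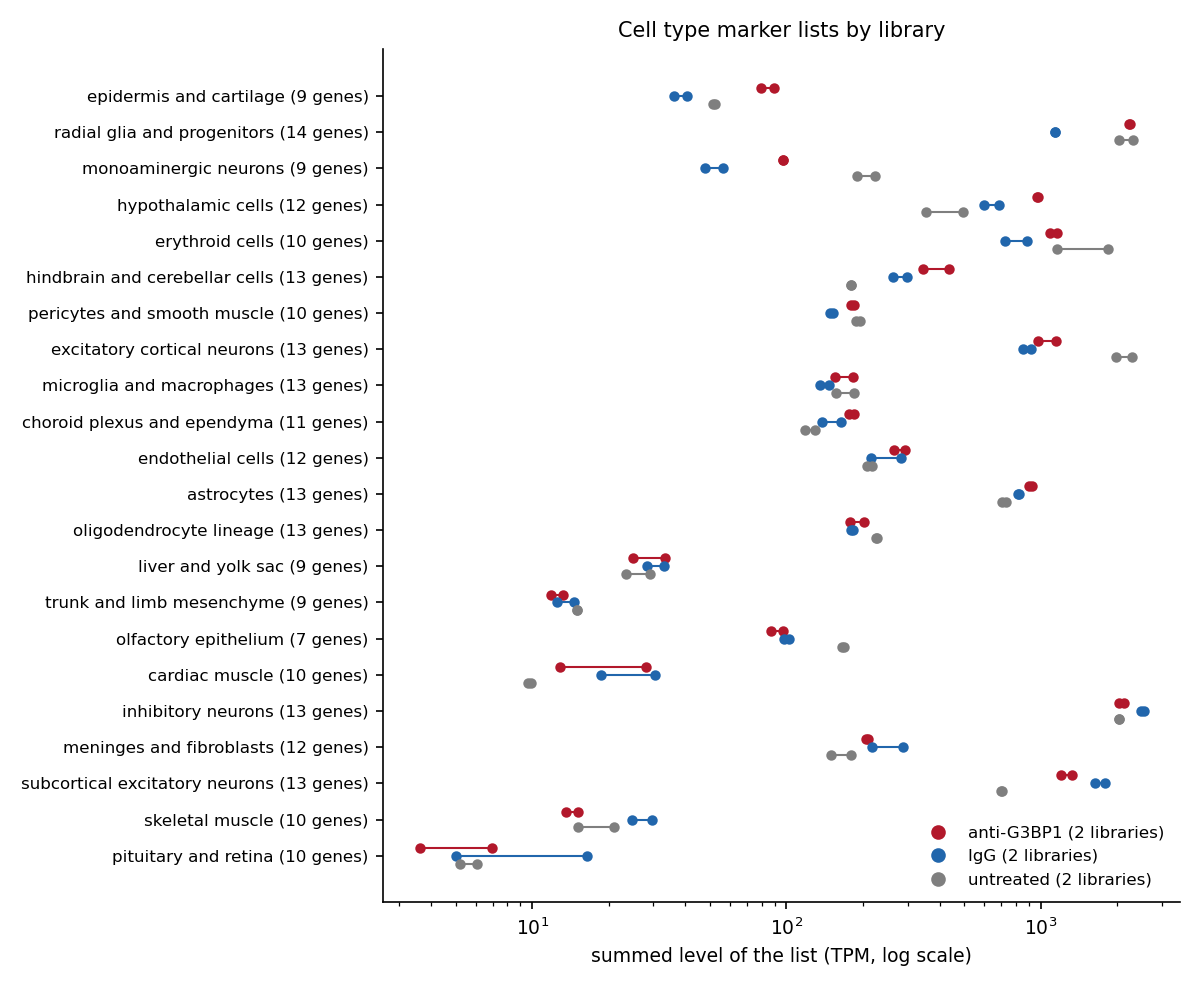
Summed level of each cell type marker list (TPM, log scale) in every library. Radial glia and progenitor markers lie about as high with anti-G3BP1 (2214 and 2245 TPM) as without treatment and lower with IgG (1138 and 1139 TPM), and markers of subcortical excitatory neurons lie highest with IgG.

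The called genes did not lie on the side of higher expression. Their median log2 expression change was −0.073, against 0.026 over the 7814 genes tested in both tables. At an unadjusted p under 0.05, 57 of the 458 were lower and 18 higher in expression with anti-G3BP1, against 367 lower and 609 higher of the 7814. With genes put in 4 equal groups by expression change, 10.1% were called where expression was lowest with anti-G3BP1 relative to IgG and 2.56% where it was highest, with median editing changes of 1.05 and 0.81. Across the 4204 of these genes with 20 or more edited reads, the editing and the expression change had r = −0.028 and rho = −0.072. These values are a description over genes that share the same libraries. Tuba1a had 4223 and 3522 TPM with anti-G3BP1 against 3828 and 4339 TPM with IgG, and Hnrnpa0 437 and 424 TPM against 475 and 472.5 TPM.

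The gain with anti-G3BP1 was last set beside that in E16.5 brain (C57BL/6J, WT, 0.2% FA, the same antibodies and fusion). At the 17642 sites kept in both tables, the fresh-frozen libraries had 2.35% and 2.47% edited reads with anti-G3BP1 against 0.795% and 0.915% with IgG, and the E16.5 brain libraries 1.09% and 1.05% with anti-G3BP1 against 0.499% and 0.518% with IgG. Over 3875 genes the median change was 1.597 in the fresh-frozen libraries and 1.19 in E16.5 brain, with a median difference of 0.34. Leaving out single libraries moved that difference between 0.115 and 0.728. In the test of the difference itself, an interaction term in the quasi-binomial fit, 0 of 3875 genes (0%) had a larger gain and 0 (0%) a smaller one, with 180 and 77 at an unadjusted p under 0.05. No other tool was run for this difference. With all kept sites of each table, which are not the same sites, 3 of 7682 genes (0.0391%) had a larger gain, Tuba1a, Hnrnpa0 and Sox4.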

How the data were processed

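Poly(A) RNA libraries were made by the submitters with TRIzol and a VAHTS Universal V6 kit, per the labels' protocols. The submitters' processing notes name the builds mm10 and GRCm38 and, without their roles, featureCounts 2.0.1, Subread, GATK 4.5.0.0, BWA 0.7.17, Picard 3.1.1 and HISAT2 2.2.1. The deposited editing table gives, per site and library, the count of reads (DP) and the count of edited reads (EDIT), per the file headers. The authors' deposited expression table gives TPM per gene. How sites were filtered before deposit is not given in the sources used here.

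Of 153510 lines in the fresh-frozen editing table, 104 were repeated and dropped, leaving 153406. Sites with 10 or more reads in all 6 libraries were kept. Counts were summed per gene, each library's edited and unedited count was raised by 0.25, and a quasi-binomial model was fitted per gene in R 4.3.3 with the dispersion moderated by limma 3.58.1 (squeezeVar, trend on edited reads, never below 1), an F test and Benjamini-Hochberg adjustment. edgeR 4.0.16 was an alternative. Expression was tested with limma after adding 1 TPM and taking log2. A gene entered if 2 of the 4 libraries or more reached 1 TPM. On this scale changes of low genes are understated. The procedure was tested on simulated data. For editing, 200 genes with 20 or more edited reads were given a known odds ratio. Of these, 3.5% were called at a ratio of 2, 75.5% at 4 and 99.5% at 8. A gene that was not called may thus still have changed. Regions and sequences come from GENCODE M21.

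Named genes were the 10 called genes with the largest and the 10 with the smallest change among those with 200 or more reads in every library, the 20 called genes with the most edited reads, up to 4 called members of each list, and G3bp1, G3bp2 and Caprin1. Genes given beyond these from the 25 gene lists and 22 marker lists, and the site windows shown, were picked after their values were seen. The libraries, members and lists were chosen with earlier results of these data known. Alternatives were other depth and read minimums, each kind of edit alone, sites not edited without treatment, other models, a replicate block and each library left out. Sequences on one chromosome were not printed, and some called genes are not reported here by name.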

Additional observations from a re-analysis of the deposited data

Results flagged for a closer look

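Over all kept sites of each table, 3 genes gained more with anti-G3BP1 over IgG in the fresh-frozen libraries than in E16.5 brain, by an interaction term in the quasi-binomial fit (dispersion moderated with limma, Benjamini-Hochberg over 7682 genes). Tuba1a differed by 2.18 ± 0.43 on the log2 odds scale (adjusted p = 0.000152): in E16.5 brain it had 0.284% and 0.252% edited reads with anti-G3BP1 against 0.141% and 0.148% with IgG. Hnrnpa0 differed by 1.96 ± 0.40 (adjusted p = 0.000280), with 0.343% and 0.368% in E16.5 brain with anti-G3BP1 against 0.211% and 0.292% with IgG. Sox4, a transcription factor of progenitors and young neurons, differed by 1.5005 ± 0.33 (adjusted p = 0.00637). It had 2.43% and 2.86% in the fresh-frozen libraries with anti-G3BP1 against 0.632% and 0.880% with IgG, and 0.289% and 0.231% in E16.5 brain with anti-G3BP1 against 0.196% and 0.206% with IgG. The tables list different sites of these genes, and over shared sites 0 genes differed.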

How the results depend on the processing

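The count of genes with higher editing, 458, became 717 at a depth minimum of 5 reads, 703 with 200 reads per gene, 0 with C-to-T sites alone (612 at an unadjusted p under 0.05), 1 against the median change, 0 with limma on the logit and 0 at the depth-matched sites (an alternative chosen after seeing the data, with 275 genes left to test). With A-to-G sites alone it was 358, of which 276 were among the 458, and without sites edited in untreated libraries 330. Leaving out 1 library gave 0 to 220 calls. Lower editing was called in 2 genes at a depth minimum of 5, 2 with 200 reads per gene, 1 with edgeR and 7 with all 6 libraries in 1 fit. The last setting called 29 genes higher and 5 lower in expression, and all kept sites gave 3 genes with a larger gain than in E16.5 brain. The log2 difference of the overall share, 0.93, was 1.17 for A-to-G sites, 0.64 for C-to-T sites, 1.04 without sites edited in untreated libraries, 1.09 as the median of gene shares, 1.05 at depth-matched sites and 0.90 to 0.95 without single libraries. With C-to-T sites alone, Uchl1 (−0.12), Sv2a (−0.83), Ddx6 (−0.54) and Rtn1 (−0.84) turned negative, and without G3BP1 replicate 2 so did G3bp1, whose change ran from −0.22 to 0.72 as single libraries were left out. Some settings held fewer sites, genes or libraries, and what moved the counts and values was not tested for any setting. Same-numbered libraries did not deviate together (correlations 0.0133 and 0.0285 for editing, −0.0145 for expression). With a median of 21 edited reads per gene, this cannot show whether same-numbered libraries share an origin, and the labels do not say. With a replicate block 93 genes were called higher in editing, and 0 in expression.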
